A study of Mus musculus with 36 samples.

Results

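Livers of male C57BL/6N mice that had received carbon tetrachloride (CCl4) for 6 months were compared with livers of mice that had received it for 2 months. CCl4 is a solvent that hepatocytes turn into radicals, and repeated doses bring cycles of hepatocyte death, repair and scarring. The 12 libraries, 6 per group, were chosen by their titles from a series of 36, and every gene was compared. Mice of both groups were 8 to 10 weeks old at the start and were injected into the peritoneum 2 times a week with CCl4 in olive oil, at 1 g per kg. Collection took place on day 6 after the last dose. The groups therefore differ in months of CCl4, in the number of injections and in age, which cannot be told apart here, because the oil-injected controls used here were collected after 2 and 12 months. The other groups (month 0 control, oil for 2 and 12 months, CCl4 for 12 months) entered the same model of 6 groups of 6 libraries. The labels number the libraries 1 to 6 within a group and do not say whether each came from a separate mouse. The p-values therefore measure the spread between libraries, pooled over all 6 groups and not only those compared.

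Hepatocytes make cholesterol from acetyl-CoA through mevalonate, isoprenoids, squalene and lanosterol, and the transcription factor SREBP2 raises most enzymes of this path when sterol in the membranes of the endoplasmic reticulum is low. Kupffer cells are the resident macrophages of the liver sinusoids. They clear haemoglobin, dying cells and particles with receptors such as CD163, TIMD4 and MARCO, and can be replaced by cells derived from monocytes after injury. The RNA came from whole liver, in which fewer cells of a type and less RNA per cell cannot be told apart.

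Few genes passed the test used here (an edgeR adjusted p below 0.05) between month 6 and month 2. Genes of cholesterol synthesis, 2 genes of fatty acid supply (Pparg and Me1) and several genes of low abundance were higher at month 6. The resident macrophage receptor Cd163, the hedgehog-binding protein gene Hhip and some genes of secreted liver proteins were lower. Of 15338 genes tested, 77 were called, that is, had an adjusted p below 0.05 in edgeR's quasi-likelihood test (0.502%), 42 of them higher at month 6 (0.274%) and 35 lower (0.228%). Scaling by library totals alone, in place of edgeR's TMM factors, gave 58 higher and 26 lower. The change was 2-fold or more in 20 of the higher and 22 of the lower genes. An unadjusted p below 0.05 was found for 1395 genes, 699 higher (4.56%) and 696 lower (4.54%), so genes that were not called may differ too. The 6 values of one group lay entirely outside those of the other for 27 of the called higher and 13 of the called lower genes, and over all tested genes for 0.567% (higher) and 0.45% (lower). These counts moved with single libraries: leaving out each of the 12 in turn gave between 12 and 111 called genes, with the lowest counts without month 2 library 6 (12) and without month 6 library 2 (16), and the highest without month 2 library 1 (111). In all 12 of these fits 11 genes kept their call, namely Cdh19, Crat, Cyp2c67, Hsd17b12, Hsd17b7, Me1, Mvd, Pparg and Sytl5 (higher) and Cd163 and Hhip (lower).

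Some libraries stood apart from their group, which touches the results below. Totals ran from 22078882 to 28166011 counts at month 2 and from 19403247 to 27323706 at month 6, and the hepatocyte transcript Alb ran from 47400 to 53600 CPM (counts scaled to the size of each library) at month 2 and from 36500 to 54100 CPM at month 6. Month 2 library 6 held transcripts of intestinal epithelium. Its 36 listed genes summed to 1990 CPM, against 322 to 1040 CPM in the other 5 month 2 libraries and 335 to 814 CPM at month 6, and the intestinal transcription factors Cdx1 and Cdx2 were at 0.799 and 1.04 CPM there and at 0 in all month 6 libraries. Month 2 library 1 was highest in neutrophil genes, which summed to 514 CPM against 39 to 59.8 CPM in the rest of its group. Month 6 library 2 was highest at month 6 in mesothelial genes (192 CPM, against 42.9 to 79.6 CPM), in Spp1 (278 CPM, against 69.1 to 90.4 CPM) and in Timp1 (14.7 CPM, against 1.63 to 3.4 CPM). Transcripts of pancreatic acini, summed over 22 genes, ran from 313 to 50700 CPM at month 2 and from 12.4 to 13400 CPM at month 6, with none of the 22 called.

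The libraries also differed in genes that follow the time of day. Arntl, which encodes the activator BMAL1 of the circadian clock, peaks in mouse liver around the start of the light phase, and Dbp, a clock output gene, peaks around its end. Arntl ran from 0.919 to 14.3 CPM at month 2 (median 1.57) and from 1.67 to 22.5 CPM at month 6 (median 7.58). At month 6 libraries 1, 2 and 3 had 22.5, 22 and 13.2 CPM and libraries 4, 5 and 6 between 1.67 and 1.93 CPM, while at month 2 only libraries 1 (14.3 CPM) and 2 (3.96 CPM) were above 1.84 CPM. Dbp mirrored this, at 4.23, 1.95 and 36.2 CPM in month 6 libraries 1, 2 and 3 and between 91.7 and 106 CPM in libraries 4, 5 and 6, with 29.7 CPM in month 2 library 1 and 67.6 to 108 CPM in the other month 2 libraries. Neither gene was called (Arntl log2 fold change 1.43, SE 0.64, edgeR adjusted p = 0.493; Dbp -0.51, SE 0.76, edgeR adjusted p = 0.906), and the groups overlapped for both. Of 15 core clock genes and 18 clock output genes tested, none was called, with median log2 fold changes of -0.27 and -0.33 against 0 over all tested genes. Among the clock genes, Npas2 (1.60), Clock (0.44), Per1 (-0.43), Per2 (-0.55), Per3 (-0.71), Tef (-0.55), Nr1d1 (0.26), Nr1d2 (-0.41) and Cry1 (-0.07) were not called. The collection times are not in the labels used here. With the log2 ratio of Arntl to Dbp of each library as a covariate, 14 genes were called (0.0913% of those tested), 11 higher (0.0717%) and 3 lower (0.0196%), all of them among the 77.

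Cholesterol synthesis was the list with the most called genes. Of 26 tested members, 11 were higher at month 6, 0 were lower and 15 were not called, against 0.274% called higher over all genes. The median log2 fold change of the list was 0.75, against 0 over all tested genes and -0.04 for the same list between oil at months 12 and 2. All 26 members had values above 0, and 12 had groups that did not overlap (0.567% over all tested genes). Summed over the list, levels ran from 2680 to 4250 CPM at month 2 (median 3290) and from 4860 to 9490 CPM at month 6 (median 5370). Every month 6 CCl4 library was thus above every month 2 CCl4 library, and library 2 was the highest. The same sum ran from 3010 to 5540 CPM in oil at month 2 and from 3550 to 5300 CPM in oil at month 12. It ran from 4350 to 9980 CPM in the month 0 control and from 2160 to 3980 CPM in CCl4 at month 12. The month 6 range therefore overlapped those of both oil groups and of month 0.

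The promoters of the called enzymes are shown because these genes moved together. RefSeq promoter entries (GRCm38.p6, the 250 bases before the start) were found for 19 of the 27 listed genes, 8 of them called. The letters CCAAT, the binding letters of the factor NF-Y, were searched on both strands, and TCACNCCA, a common form of the sterol response element bound by SREBPs, likewise. CCAAT was present before 18 of the 19 and before 8 of the 8 called genes, against 37.5% of 27025 gene symbols with an entry and 40.2% of the 11151 among them that were tested. TCACNCCA was present before 3 of the 19 (Hmgcs1, Msmo1 and Srebf2), against 4.2% and 4.12%. The letters CACGTG were searched as well. They were present before 4 of the 19 (Dhcr7, Hsd17b7, Insig1 and Sc5d), against 6.86% and 9.22%, and before 1 of the 8 called genes. The windows of 4 called genes, each lying outside annotated exons, read 5′ to 3′ on the gene's strand, with CCAAT, its reverse complement ATTGG and, in Hmgcs1, TCACCCCA in capitals. A match of letters is a description of these windows and does not show that a factor binds there.
Hmgcs1 (chr13:119690104-119690320, plus strand): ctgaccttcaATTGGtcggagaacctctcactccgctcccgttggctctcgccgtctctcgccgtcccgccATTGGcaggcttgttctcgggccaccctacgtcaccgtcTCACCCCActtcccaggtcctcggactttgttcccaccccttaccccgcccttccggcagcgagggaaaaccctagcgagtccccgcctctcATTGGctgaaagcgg
Mvd (chr8:122443435-122443492, minus strand): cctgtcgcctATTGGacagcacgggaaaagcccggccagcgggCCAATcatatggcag
Lss (chr10:76531533-76531557, plus strand): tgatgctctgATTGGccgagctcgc
Pmvk (chr3:89454395-89454419, plus strand): ctcaggttggCCAATtcacagcatc

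In the order of the path, Hmgcs1 encodes the synthase that makes HMG-CoA (chromosome 13, 119690379 to 119708260). It ran from 164 to 490 CPM at month 2 (median 250) and from 487 to 1860 CPM at month 6 (median 685). Month 6 library 2 was highest at 1860 CPM, and the groups met only where month 2 library 1 (490 CPM) passed month 6 library 5 (487 CPM). Hmgcs1 rose 3.19-fold (log2 fold change 1.67, SE 0.36, edgeR adjusted p = 0.0243). The kinase gene Pmvk was higher by 1.01 on the log2 scale (SE 0.21), with 24.6 to 42.1 CPM at month 2, all below the 48.5 to 109 CPM at month 6.

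Mvd encodes the decarboxylase that closes the mevalonate segment (chromosome 8, 122433601 to 122443422). It ran from 5.59 to 18.7 CPM at month 2 (median 8.17) and from 17.7 to 68.2 CPM at month 6 (median 30.3), with month 2 library 3 just above the lowest month 6 library. It rose 3.23-fold (log2 fold change 1.69, SE 0.31, edgeR adjusted p = 0.00934). The isoprenoid enzymes Idi1 (log2 fold change 1.09) and Fdps (0.99) and the squalene enzymes Fdft1 (0.98) and Sqle (1.09) rose as well, each with no overlap between the groups. Fdps ran from 152 to 312 CPM at month 2 and from 419 to 577 CPM at month 6.

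Lss (1.24), which closes the sterol rings to form lanosterol, rose with no overlap between groups. So did enzymes that act on lanosterol and later sterols, the demethylases Cyp51 (0.97) and Msmo1 (1.02) and the ketosteroid reductase Hsd17b7 (1.09). Hsd17b7 (chromosome 1, 169949535 to 169969241) ran from 26.3 to 38.3 CPM at month 2 (median 32) and from 48.7 to 132 CPM at month 6 (median 60.2; SE 0.2, edgeR adjusted p = 0.0101). The isomerase gene Ebp (0.19) was not called, nor were Acat2 (0.68), Nsdhl (0.71) and Sc5d (0.57), whose groups did not overlap either. Of the genes of sterol regulation on the list, these were not called: Srebf2, which encodes SREBP2, at 0.49 (edgeR adjusted p = 0.0817), Insig1 at 0.75 and Tmem97 at 0.11.

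**Figure D1:**
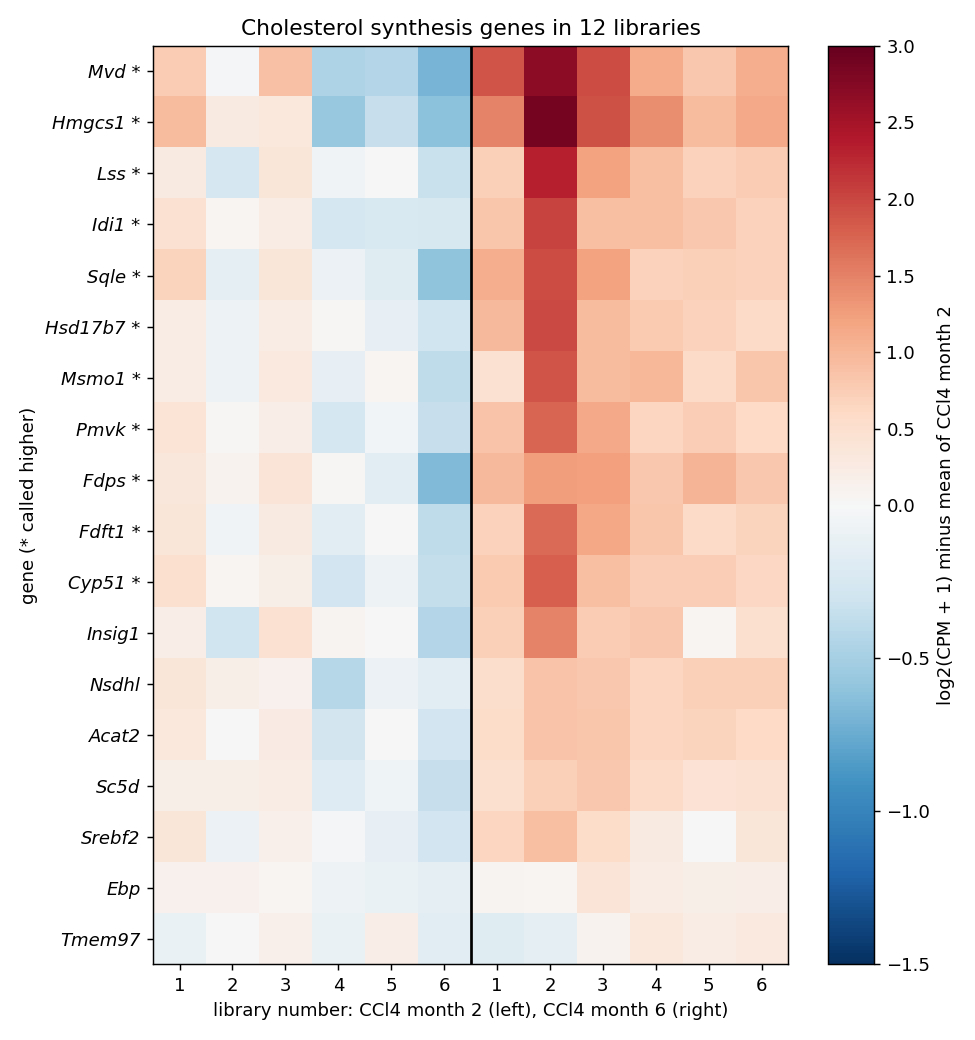
Level of each of the 18 cholesterol synthesis genes named in the text (rows), of 26 tested, in the 6 month 2 and 6 month 6 libraries (columns), as log2(CPM + 1) minus the mean of the month 2 libraries. The month 6 side is red in most rows, deepest in library 2, and the lowest rows (Ebp and Tmem97) stay near 0.

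Library 2 of month 6 had the highest level of many of these genes, so the list was also described without single libraries. Without it the list median was 0.67 and 2 members were called, and without month 2 library 6 the median was 0.68 and 2 were called, Mvd and Hsd17b7 in each case. The count was 3 without month 6 library 3, 5 without month 2 library 4 or 5, and between 10 and 14 without any other library, with medians between 0.73 and 0.84. Fitted on the 12 compared libraries alone, 3 members were called with a median of 0.75, and of the 11 only Fdps kept its call (edgeR adjusted p = 0.0236), with Hsd17b7 at 0.0752 and Mvd at 0.112. With the Arntl to Dbp ratio as covariate the median was 0.68 and 0 members were called, and with that covariate and without month 2 library 6 the median was 0.63. Libraries 4, 5 and 6 of each group, which all had Arntl below 2 CPM, were set apart after the values were seen. In them Hmgcs1 was at 169, 198 and 164 CPM at month 2 and at 658, 487 and 552 CPM at month 6. Month 2 library 3, also below 2 CPM in Arntl, was not among them. It had 312 CPM of Hmgcs1 and the highest list sum of its group (4250 CPM). A fit of libraries 4, 5 and 6 alone gave a list median of 0.83 with 1 call, against 15 over all genes (0.0946%), 7 higher (0.0442%) and 8 lower (0.0505%). That fit holds month 2 library 6, which had the lowest list sum of its group (2680 CPM). With that library left out too, 1 gene was called over all genes, 0 higher and 1 lower, so no gene of the list was called higher.

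**Figure D2:**
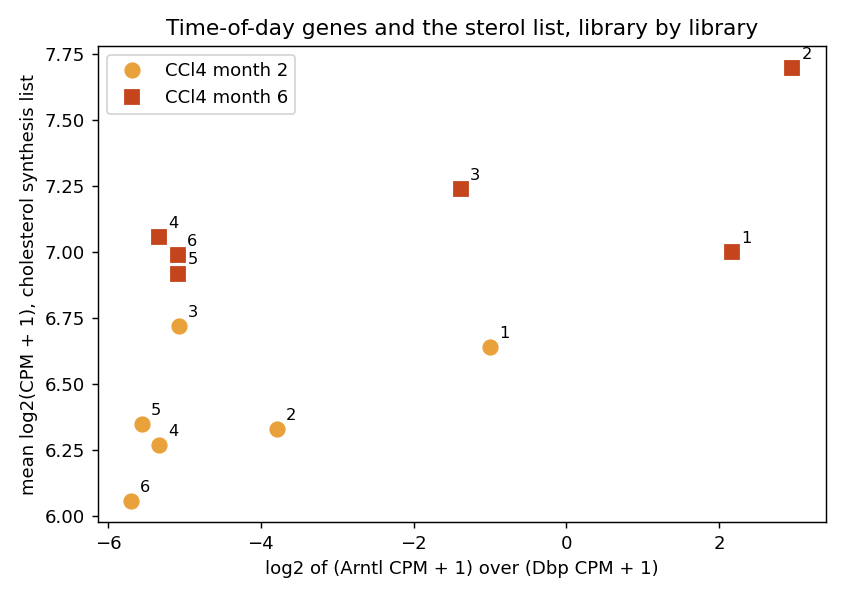
Mean log2(CPM + 1) of the cholesterol synthesis list (vertical) against the log2 ratio of Arntl to Dbp (horizontal) in the 12 libraries, numbered within their group. At ratios between -5.7 and -5.07, where 4 month 2 and 3 month 6 libraries lie, the 3 month 6 libraries are above all 4 month 2 libraries.

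Genes that supply and handle fatty acids rose in part. Of 30 lipogenesis genes tested, 2 were higher, 0 lower and 28 not called, against 0.274% higher and 0.228% lower over all genes. The median log2 fold change of the list was 0.40, against 0 over all tested genes. An unadjusted p below 0.05 was found for 14 higher and 3 lower members, against 4.56% and 4.54% of all genes. Pparg encodes a nuclear receptor that drives fat storage (chromosome 6, 115360951 to 115490399). It ran from 2.66 to 4.07 CPM at month 2 (median 3.55) and from 5.74 to 12.7 CPM at month 6 (median 8.13), so every month 6 library was above every month 2 library. Pparg rose 2.47-fold (log2 fold change 1.30, SE 0.22, edgeR adjusted p = 0.00496).

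Me1, the cytosolic malic enzyme that yields NADPH for fatty acid synthesis (chromosome 9, 86581371 to 86695953), ran from 54.6 to 72.1 CPM at month 2 (median 59) and from 107 to 174 CPM at month 6 (median 142). Again no month 6 library reached down to the month 2 libraries, and Me1 rose 2.30-fold (log2 fold change 1.20, SE 0.21, edgeR adjusted p = 0.00697). It was also the only gene called both here and between oil at months 12 and 2, where it fell by 1.34 on the log2 scale (SE 0.22, edgeR adjusted p = 0.0036) and where 11 genes were called in all (0.0717%). Mean levels of Me1 were 117 CPM in oil at month 2 and 81.1 CPM in CCl4 at month 12.

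Other enzymes of lipid metabolism rose with small spread. Crat, the carnitine acetyltransferase gene (chromosome 2, 30400471 to 30415813), had 12.6 to 16.5 CPM at month 2 and 22.7 to 32.1 CPM at month 6 (log2 fold change 0.79, SE 0.14, edgeR adjusted p = 0.00496). Hsd17b12, an enzyme of very long chain fatty acid elongation (chromosome 2, 94032689 to 94157964), had 88.4 to 120 CPM at month 2 and 129 to 144 CPM at month 6 (0.45, SE 0.08, edgeR adjusted p = 0.0084). In both genes the groups did not overlap. Gpd1, the glycerol phosphate dehydrogenase gene, was higher by 0.56 (edgeR adjusted p = 0.0345), with overlapping groups, and lost its call without any library but month 2 library 1 or 2 or month 6 library 6 (0.50 to 0.67 over the 12 fits). The synthesis genes Scd1 (0.75), Fasn (0.93), Acly (0.84) and Elovl5 (1.05) and the lipid droplet coat gene Plin2 (0.87) were not called, with edgeR adjusted p between 0.0724 for Plin2 and 0.325 for Scd1.

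**Figure D3:**
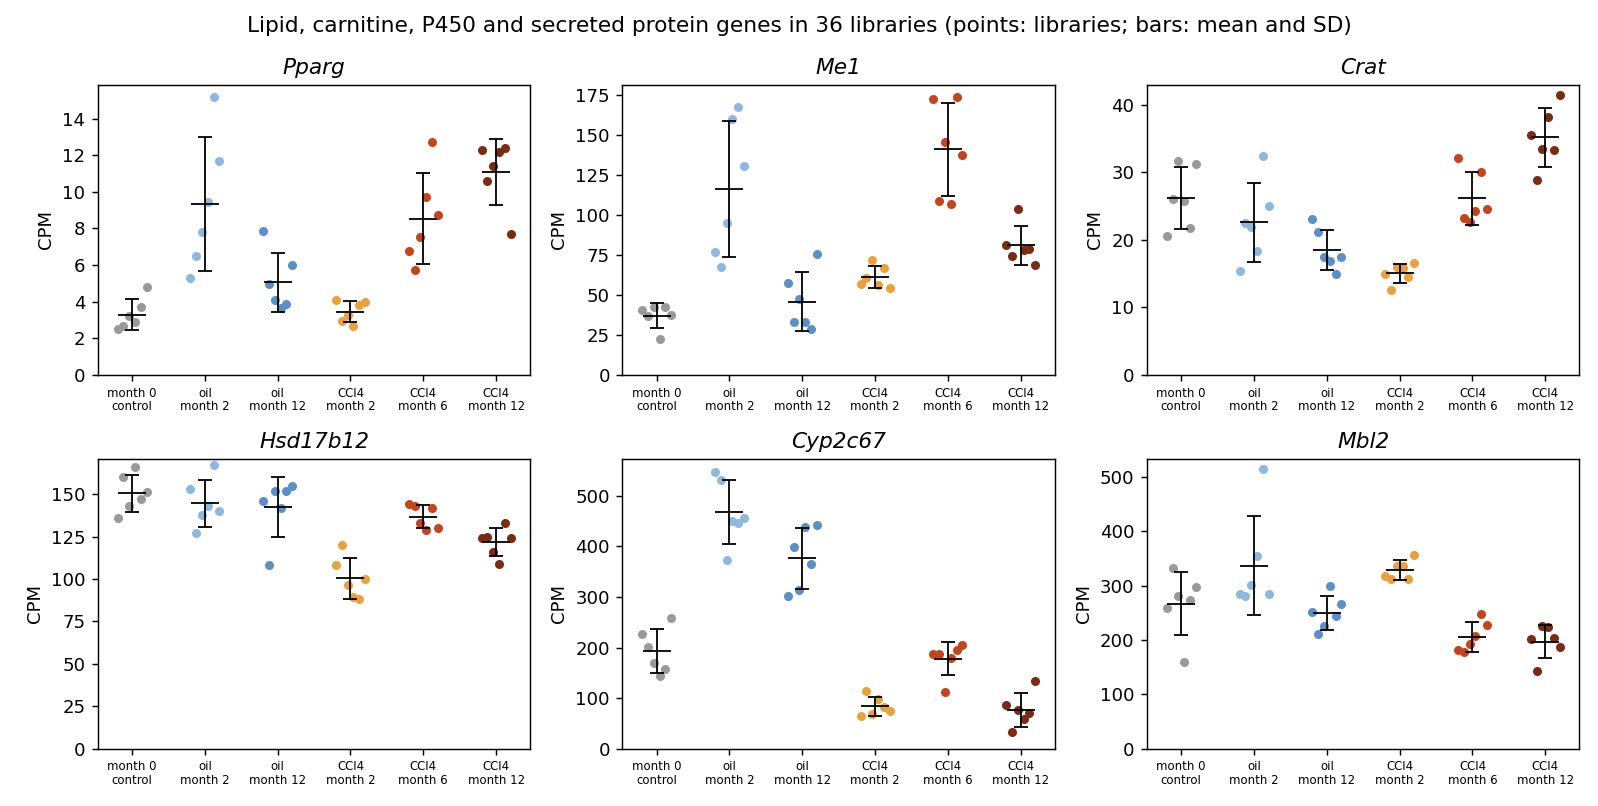
CPM of Pparg, Me1, Crat, Hsd17b12, Cyp2c67 and Mbl2 in all 6 groups (points are libraries, bars the mean and SD of 6). For Pparg, Me1, Crat and Hsd17b12 all month 6 CCl4 points lie above all month 2 CCl4 points, and for Mbl2 all lie below.

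Cd163 was the gene with the smallest p of all. It encodes the receptor by which resident macrophages take up haptoglobin-bound haemoglobin (chromosome 6, 124304656 to 124330527). Month 2 libraries had 16.5 to 41.3 CPM (median 31.9) and month 6 libraries 3.37 to 8.75 CPM (median 4.45), with no overlap. Cd163 was 6.17-fold lower at month 6 (log2 fold change -2.63, SE 0.23, edgeR adjusted p = 8.92e-09). Its mean was 36.3 ± 5.13 CPM (SD, n = 6) in oil at month 2, 39.6 ± 6.05 CPM in oil at month 12 and 5.36 ± 2.59 CPM in CCl4 at month 12.

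The other Kupffer cell genes did not fall alike. Of 19 listed and tested, 3 were lower, 0 higher and 16 not called, against 0.228% called lower over all genes, and the list median was -0.16. Timd4, a receptor for phosphatidylserine on dying cells (chromosome 11, 46810800 to 46844332), ran from 6.01 to 17.1 CPM at month 2 (median 11.1) and from 0.931 to 7.5 CPM at month 6 (median 2.25). The groups overlapped through month 6 library 1 (7.5 CPM), and Timd4 was 3.86-fold lower (log2 fold change -1.95, SE 0.43, edgeR adjusted p = 0.0274). It lost its call without month 2 library 3 or 6 or month 6 library 2, 3, 5 or 6 (-2.44 to -1.76 over the 12 fits). Xlr was lower by 1.14 on the log2 scale (log2 fold change -1.14, SE 0.26), from a median of 1.6 CPM to 0.633 CPM, and lost its call without month 2 library 1, 5 or 6 or month 6 library 2, 3, 4 or 6 (-1.39 to -0.99).

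Marco, a scavenger receptor for particles (chromosome 1, 120474538 to 120505024), spread widely. At month 2 it was at 181, 213 and 220 CPM in libraries 1, 2 and 3 and at 47.4, 52 and 22.9 CPM in libraries 4, 5 and 6, and at month 6 it ran from 2.66 to 56.7 CPM (median 14.1). The groups overlapped, and Marco was not called (log2 fold change -2.71, SE 0.69, edgeR adjusted p = 0.067). Timd4 and Cd163 had their 3 highest month 2 values in the same libraries 1, 2 and 3. The lineage markers Clec4f (-0.09) and Vsig4 (-0.20) were not called: Clec4f ran from 98 to 153 CPM at month 2 and from 76.2 to 131 CPM at month 6. Clec1b (-0.50), whose groups did not overlap, and the secreted macrophage protein gene Cd5l (-0.57) were not called either. The only members of the Kupffer list with values above 0 were Hmox1 (0.04), C6 (0.22) and Id3 (0.03). Of 20 genes of monocyte-derived macrophages, 0 were called and the median was 0.15 (-0.10 without month 6 library 2), with Trem2, a lipid receptor, at 0.09 and Gpnmb at 0.79. Summed over the Kupffer list, levels were 1150 to 1810 CPM at month 2 and 846 to 1530 CPM at month 6, and without month 2 library 6 Cd163 was the only member of the list still called (log2 fold change -2.68).

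**Figure D4:**
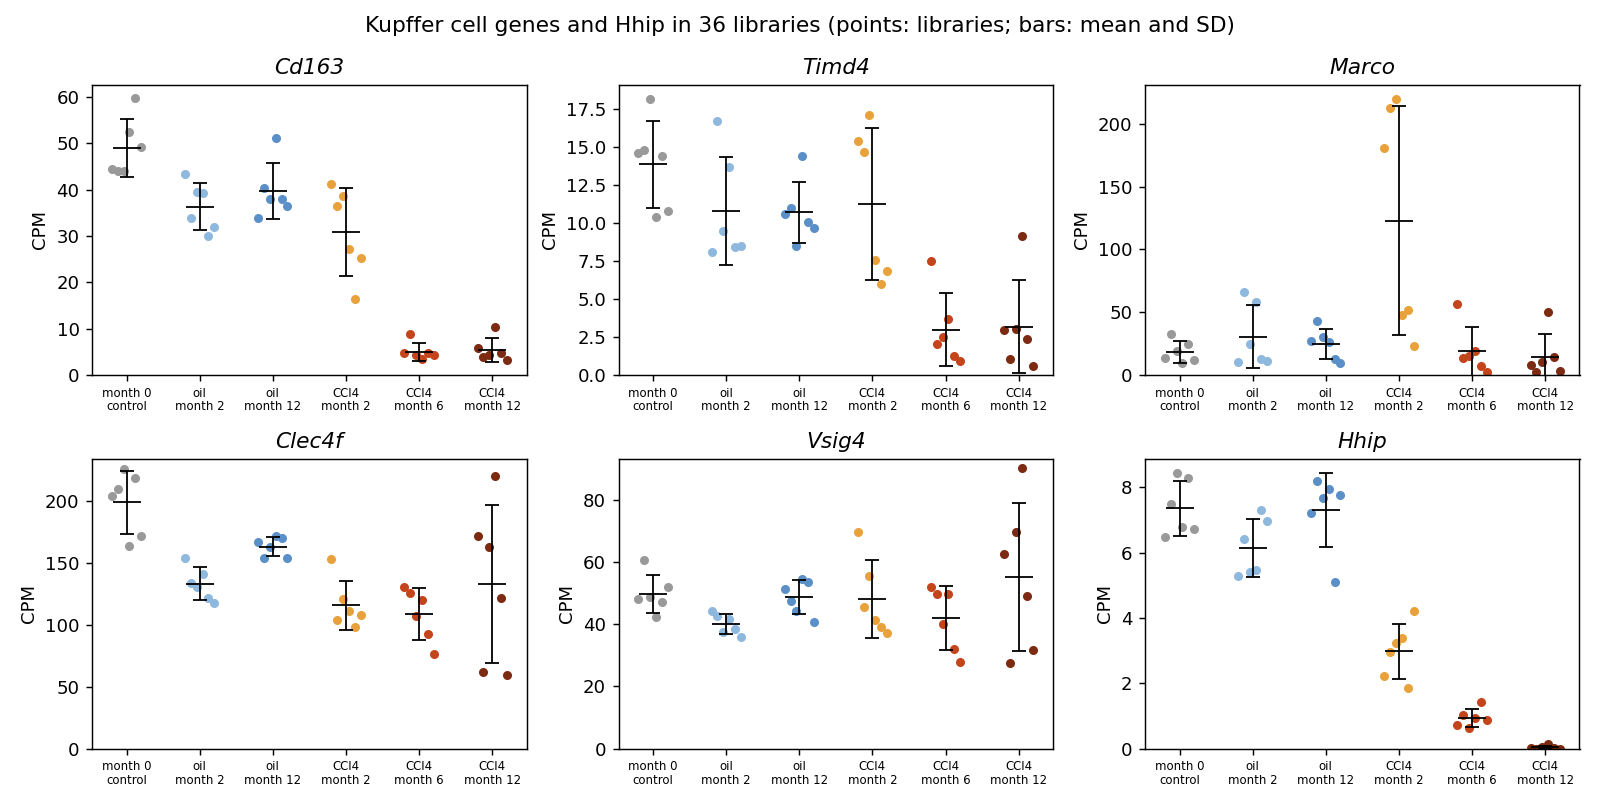
CPM of Cd163, Timd4, Marco, Clec4f, Vsig4 and Hhip in all 6 groups (points are libraries, bars the mean and SD of 6). Cd163 and Hhip at month 6 of CCl4 lie below all month 2 CCl4 points, while Clec4f and Vsig4 overlap.

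Hhip, which encodes a membrane protein that binds and limits hedgehog ligands (chromosome 8, 79965851 to 80058006), was listed with quiescent stellate cells, the fat-storing cells that turn into matrix-producing cells in scarring. It ran from 1.87 to 4.2 CPM at month 2 (median 3.1) and from 0.64 to 1.44 CPM at month 6 (median 0.895), with no overlap. Hhip was 3.16-fold lower (log2 fold change -1.66, SE 0.22, edgeR adjusted p = 8.07e-05). Side by side, its mean was 6.14 ± 0.878 CPM (SD, n = 6) in oil at month 2, 7.31 ± 1.14 CPM in oil at month 12 and 0.0407 ± 0.0531 CPM in CCl4 at month 12. Of 20 stellate list genes Hhip alone was called, against 0.228% called lower over all genes, and the list median was -0.15.

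Most scar matrix genes were not called. Of 33 fibrillar matrix genes tested, 1 was higher, 0 lower and 32 not called, against 0.274% higher and 0.228% lower over all genes. The median log2 fold change of the list was 0.07. The one called, Fbn2, encodes a microfibril protein and ran from 0.509 to 1.05 CPM at month 2 (median 0.714) and from 1.21 to 2.81 CPM at month 6 (median 1.92). Its groups did not overlap (log2 fold change 1.41, SE 0.29, edgeR adjusted p = 0.0233), and it lost its call without month 2 library 6 (1.40) or month 6 library 2 (1.29). The collagen genes Col1a1 (0.19, SE 0.35) and Col3a1 (0.04, SE 0.30), the crosslinking enzyme gene Lox (0.60), Timp1 (0.98), the contractile gene Acta2 (-0.29), Spp1 (0.23) and the bile duct keratin gene Krt19 (-0.52) were not called. Without month 6 library 2 Timp1 was at 0.22, Lox at 0.14, Spp1 at -0.23, Col1a1 at -0.08, Col3a1 at -0.28, Acta2 at -0.45 and Krt19 at -1.09, and the matrix list median at -0.10. Without month 2 library 6 Acta2 was at -0.01 and Krt19 at 0.30. In libraries 4, 5 and 6 alone Timp1 was at -0.16 and Lox at -0.45. No direction is read from these genes. Col1a1 ran from 26.2 to 45.6 CPM at month 2 and from 27.7 to 77.2 CPM at month 6, with the highest value in library 2. None of 18 contractile, 18 basement membrane, 30 matrix remodelling and 23 TGF-beta and PDGF signalling genes tested was called, with medians between -0.04 and 0.19.

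Genes of secreted liver proteins were lower in a few cases. Of 36 complement and coagulation genes tested, 3 were lower, 0 higher and 33 not called (0.228% lower over all genes), with a median of -0.19, and 10 were lower and 0 higher at an unadjusted p below 0.05, against 4.54% and 4.56% of all genes. Mbl2, a lectin that starts complement on microbial sugars (chromosome 19, 30232942 to 30239687), ran from 312 to 357 CPM at month 2 (median 327) and from 178 to 247 CPM at month 6 (median 199). All month 6 libraries were below all month 2 libraries (log2 fold change -0.68, SE 0.14, edgeR adjusted p = 0.0243), and the call was lost without month 2 library 6 or month 6 library 1, 2 or 3 (-0.74 to -0.63). C2, a complement protease gene (chromosome 17, 34862604 to 34898265), fell with no overlap, from a median of 143 CPM to 111 CPM (log2 fold change -0.46, SE 0.09, edgeR adjusted p = 0.0233), and lost its call without month 6 library 2 alone (-0.41). The coagulation factor gene F7 was at -0.37 (edgeR adjusted p = 0.0497), without overlap, a call lost without any 1 of the 12 libraries (-0.41 to -0.33). Rnase4, a secreted ribonuclease gene, ran from 1040 to 1490 CPM at month 2 and from 571 to 857 CPM at month 6 (log2 fold change -0.87, edgeR adjusted p = 0.0395), a call kept without month 2 library 2 or month 6 library 4 and lost without any other. With the Arntl to Dbp ratio as covariate, Mbl2 (-0.61), C2 (-0.44), F7 (-0.37) and Rnase4 (-0.79) were not called.

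The transporter genes Abcg5 and Slco1a1 and the receptor gene Scarb1 were called lower, each call resting on single libraries. Of 29 bile acid genes tested, 2 were lower (0.228% over all genes), 0 higher and 27 not called, with a median of -0.12. The list had 0 calls without month 2 library 5 or 6, without month 6 library 3 or with the Arntl to Dbp covariate, and its median was 0.13 in libraries 4, 5 and 6 alone and -0.02 without month 6 library 2. Abcg5, whose product pairs with that of Abcg8 to export sterols into bile (chromosome 17, 84658234 to 84683011), ran from 42.2 to 76.5 CPM at month 2 and from 15.8 to 44.7 CPM at month 6. The groups overlapped narrowly (log2 fold change -0.89, SE 0.19, edgeR adjusted p = 0.0252). Abcg8 had a like value but was not called (-0.73, edgeR adjusted p = 0.123). Slco1a1, an organic anion uptake transporter with male-biased expression (chromosome 6, 141907282 to 141946962), ran from 158 to 434 CPM at month 2 (median 315) and from 42.7 to 208 CPM at month 6 (median 113), with overlap (log2 fold change -1.33, SE 0.29, edgeR adjusted p = 0.0246). Scarb1, the HDL receptor gene, was at -0.45 (edgeR adjusted p = 0.0497). Abcg5 lost its call without month 2 library 5 or 6 or month 6 library 1, 2 or 3 (-1.01 to -0.74), Slco1a1 without month 2 library 4, 5 or 6 or month 6 library 3, 4 or 6 (-1.55 to -1.16), and Scarb1 without any library but month 2 library 4 or month 6 library 3 (-0.51 to -0.36). Cyp7a1, the rate-limiting enzyme of bile acid synthesis, was not called (-0.30, SE 0.66, and 0.19 with the covariate); it was lowest in month 6 library 2 (12.8 CPM) and ran up to 416 CPM in that group.

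The cytochrome P450 genes Cyp2c67 and Cyp2c38 were called higher. Cyp2c67 (chromosome 19, 39608842 to 39649051) ran from 63.7 to 114 CPM at month 2 (median 79.2) and from 113 to 206 CPM at month 6 (median 187), and the groups met where month 6 library 3 (113 CPM) was just below month 2 library 2 (114 CPM). It rose 2.13-fold (log2 fold change 1.09, SE 0.21, edgeR adjusted p = 0.0101) and stood at a mean of 468 ± 63.5 CPM (SD, n = 6) in oil at month 2. Cyp2c38, on the female-biased list, ran from 0.786 to 2.58 CPM at month 2 and from 1.88 to 12.7 CPM at month 6 (1.82, edgeR adjusted p = 0.0241) and lost its call without month 2 library 6 or month 6 library 6 (1.71 and 1.40). Reads of near-identical Cyp2c genes may be shared among them, so the assignment to these 2 is uncertain. Of 36 female-biased genes 1 was higher and 0 lower, and of 36 male-biased genes 0 were higher and 1 lower (Slco1a1), against 0.274% higher and 0.228% lower over all genes, with medians of 0.32 and -0.12. Both calls were lost without month 2 library 6. Without 1 library the medians ran from 0.08 (month 6 library 4) to 0.43 and from -0.18 to 0.03 (month 2 library 2). Hsd3b5 (-1.24), Cyp2a4 (1.64), Susd4 (0.07), Cyp2e1 (-0.18), which is the enzyme that activates CCl4, and the zonal genes Glul (0.05) and Cyp2f2 (-0.14) were not called.

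Some genes of low abundance rose. Cdh19, a cadherin gene of Schwann cells (chromosome 1, 110888326 to 110977584), ran from 0.308 to 0.839 CPM at month 2 (median 0.542) and from 1.58 to 4.63 CPM at month 6 (median 2.83). The groups did not overlap, and Cdh19 was 4.96-fold higher (log2 fold change 2.31, SE 0.41, edgeR adjusted p = 0.00697). Sytl5, a gene of vesicle trafficking on the X chromosome (9885622 to 9994543), ran from 0.587 to 1.57 CPM and from 2.29 to 5.02 CPM (log2 fold change 1.93, SE 0.33, edgeR adjusted p = 0.00496), also without overlap. Dntt (1.60), Fam198a (1.5) and the imprinted gene Peg10 (1.40) rose too, and each lost its call without 7 of the 12 libraries. Among these were month 2 library 6 (in gene order 1.51, 1.44 and 1.5 without it) and month 6 library 2 (1.56, 1.53 and 0.92). With the Arntl to Dbp ratio as covariate the values were 1.54, 1.21 and 0.91. In libraries 4, 5 and 6 alone they were 2.11, 1.81 and 0.57, and none of these genes was called in either fit.

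The tubulin gene Tubb2a had the highest fold change of the called genes that averaged 1 CPM or more, and it moved with the clock genes. It was at 184, 357 and 107 CPM in month 6 libraries 1, 2 and 3, at 22.3 to 31.9 CPM in libraries 4, 5 and 6, and from 12.2 to 49.3 CPM at month 2, highest in library 1. Its log2 fold change was 2.54 (SE 0.53, edgeR adjusted p = 0.0241), 1.24 with the Arntl to Dbp ratio as covariate and 1.06 in libraries 4, 5 and 6 alone, called in neither, and 1.83 without month 6 library 2, where the call was also lost. Tubb4b (0.93) lost its call with the covariate too (0.63). Among other called genes, Sntb1 (0.46), the annexin gene Anxa5 (0.40), the glypican gene Gpc1 (0.75) and the teneurin gene Tenm3 (0.83) rose. Ly75 (-0.83), an endocytic receptor gene, fell. It was at 10.7 CPM in month 2 library 6 and at most 6.81 CPM in the other month 2 libraries. Of these 5, Gpc1, Sntb1 and Tenm3 kept their call with the covariate, and all 5 lost it without month 2 library 6 (Ly75 -0.68, Anxa5 0.35).

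The lowest fold changes of all came from month 2 library 6. In 17 of the 35 lower genes that library had at least 4 times the CPM of each other month 2 library, and these 17 included the 10 lowest fold changes among the called genes that averaged 1 CPM or more. This rule was chosen after the values were seen. Sis, the gut disaccharidase gene (chromosome 3, 72888557 to 72967863), was at 326 CPM there, at most 0.509 CPM in the other month 2 libraries and between 0.199 and 0.458 CPM at month 6. Its log2 fold change was -7.47 with all libraries (edgeR adjusted p = 0.0246) and 0.47 without library 6, not called. S100g (-7.87), the keratin gene Krt20 (-7.09), Fcgbp (-6.23), Slc6a19 (-6.02), the microvillus gene Vil1 (-5.98), Muc13 (-5.30), Cdhr2 (-4.63) and the glucose transporter gene Slc5a1 (-4.47), most of them known from the gut lining, lost their calls in the same way, with values between -0.99 and 0.53. Tff3, a secreted peptide gene of goblet cells, was at 32.8 CPM in library 6 and at 1.72 to 5.52 CPM in the other 5, above the 0.199 to 1.33 CPM of month 6, and had a log2 fold change of -3.41 (edgeR adjusted p = 0.0325) and of -2.10 without library 6, not called. Of 20 tested intestinal genes on the list, 6 were lower and 14 not called, against 0.228% called lower over all genes. Among the 14 were Lyz1 (-2.05), Epcam (-2.40), Lgals4 (-1.92) and Fabp2 (-0.34), all highest in that library.

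Of the other 60 called genes, which were chosen on the same libraries, 12 had an adjusted p below 0.05 without month 2 library 6 (0.0776% of those tested), 9 higher (0.0582%) and 3 lower (0.0194%). Their median absolute log2 fold change was 0.945 with the library and 0.878 without it. With the Arntl to Dbp ratio as covariate their median was 0.833, and 14 were called. Both settings together gave 11 called genes (0.0712%), 7 higher (0.0453%) and 4 lower (0.0259%), 10 of them among the 77, and the other was Marco (log2 fold change -3.41).

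**Figure D5:**
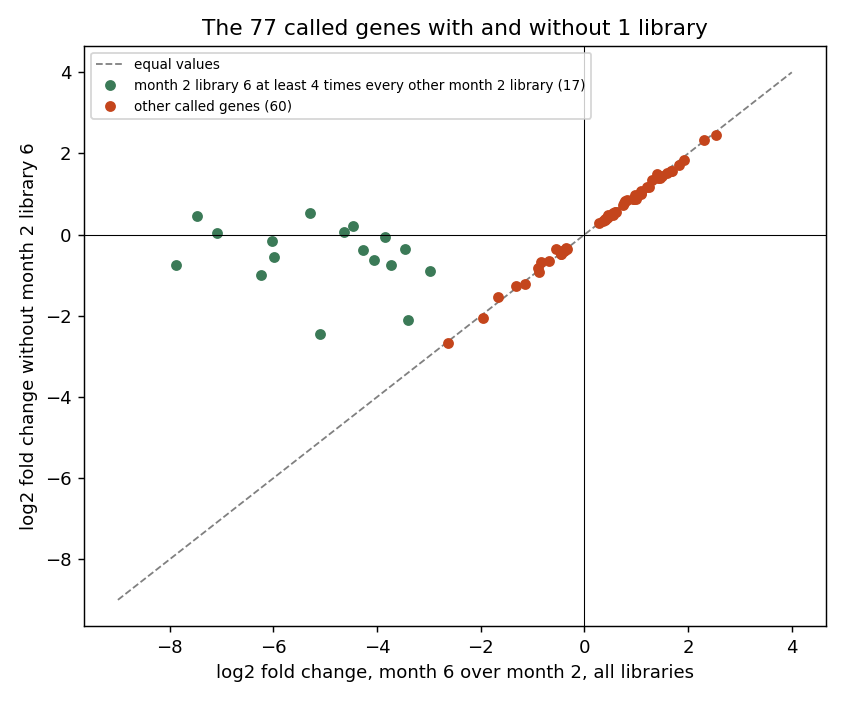
Log2 fold change of the 77 called genes with all libraries (horizontal) and without month 2 library 6 (vertical), where the dashed line marks equal values. The 17 genes in which that library had at least 4 times the CPM of each other month 2 library leave the line, and the other 60 stay near it.

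Most other lists had no called member. Cell cycle genes (37 tested, median -0.15, Mki67 -0.54), T and NK cell genes (24, median 0.06, Cd3e 0.81), sinusoidal endothelial genes (18, median -0.06, Stab2 -0.07), interferon response genes (32, median -0.12) and p53 target genes (27, median -0.07, Cdkn1a 0.35) were among them. Cdkn1a was at -0.29 without month 6 library 2, at -1.18 with the Arntl to Dbp covariate and at -1.04 in libraries 4, 5 and 6, not called in any of these. Of 38 genes of the NRF2 and glutathione response, Me1 alone was called (0.274% higher over all genes), while Nqo1 (0.02) and Gstm3 (-0.42) were not. The fetal liver gene Afp was at 0.09 and the apolipoprotein gene Apoa1 at 0.17, neither called. Acute phase genes (35 tested, 0 called, median -0.12) included Saa1, which ran from 63 to 2320 CPM at month 2, highest in library 1, and from 21.1 to 117 CPM at month 6 (log2 fold change -3.17, SE 0.93, edgeR adjusted p = 0.16). Without month 2 library 1 its log2 fold change was -1.71.

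Age was set beside these changes through the oil groups, which share no library with them. Of the 42 genes higher at month 6, 23 had a change above 0 between oil at months 2 and 12, and of the 35 lower genes 20 had a change below 0. The 35 include the 17 genes with at least 4 times the CPM in month 2 library 6. The oil groups span months 2 to 12 and the CCl4 groups months 2 to 6. The share over all tested genes is not given here, so nothing is read from these counts. Cd163 (0.12), Hhip (0.25), Hmgcs1 (0.22), Mvd (0.28), Crat (-0.29), Sytl5 (-0.69) and Cdh19 (-0.53) were not called between the oil groups. Pparg was at -0.87 there (edgeR adjusted p = 0.0792).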

How the data were processed

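Whole liver RNA was sequenced after removal of ribosomal RNA (TruSeq Stranded total RNA, paired ends), per the labels' protocols. The authors deposited whole-number read counts per gene symbol, made with BioJupies on mm10 per the labels; the submitters' processing notes also name edgeR 3.30.3 and limma 3.44.3. Which gene annotation was used: not given in the sources used here. From the deposited counts, all 36 libraries were fitted together with edgeR 4.0.16 (R 4.3.3; TMM, filterByExpr, quasi-likelihood F-test, Benjamini-Hochberg adjustment), leaving 15338 of 32544 symbols. CPM was computed here with TMM library sizes. Named genes were the 10 called genes of highest and lowest fold change and of smallest p without overlap (mean of at least 1 CPM), up to 3 called members per list and a fixed panel; others were named after their values were seen, and a few genes are not reported here. The members and gene lists were chosen with earlier results of these data known. Gene positions are from GENCODE vM21 (mm10). Alternatives were other scaling, filters, DESeq2 1.42.0, limma 3.58.1 voom, a replicate block, covariates and left-out libraries. The script was tested on simulated data.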

Additional observations from a re-analysis of the deposited data

Results flagged for a closer look

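In each group of 6 libraries, a highest or lowest value was marked when its gap to the nearest other value, divided by the range of the group, passed Dixon's critical value at the 95% level. Chance marks about 1 in 20 groups of values that were not selected. Of 260 group values tested, 47 were marked. Genes were named partly by their values in these same libraries, and many of them move together. The count of marks therefore cannot be weighed against that rate.

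Month 2 library 6 held 20 of them. It was highest in CPM of Afp (3.88), Cdhr2 (75.1), Cdx1 (0.799), Cdx2 (1.04), Epcam (33.2), Fabp2 (235), Fcgbp (146), Krt19 (24.3), Krt20 (47.5), Lgals4 (65), Ly75 (10.7), Lyz1 (64.8), Muc13 (56.7), S100g (190), Sis (326), Slc5a1 (124), Slc6a19 (26.8), Tff3 (32.8) and Vil1 (57.3). The mean log2(CPM + 1) of its intestinal genes was 5.44.

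Month 6 library 2 held 14. It was highest in CPM of the sterol genes Cyp51 (471), Hsd17b7 (132), Idi1 (897), Lss (252) and Msmo1 (608), and of Anxa5 (142), Cd163 (8.75), Col1a1 (77.2), Krt19 (14), Spp1 (278) and Timp1 (14.7). It was lowest in Fabp2 (35.6 CPM), and its mean log2(CPM + 1) was highest for fibrillar matrix genes (4.94) and neutrophil genes (2.71).

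Month 2 library 1 held 7. Hbb-bs (3590 CPM), Npas2 (1.17 CPM), S100a8 (78.9 CPM) and Scarb1 (117 CPM) were highest there and Dbp (29.7 CPM) lowest, and the mean log2(CPM + 1) was highest for erythroid (5.93) and neutrophil genes (3.72). Month 6 library 3 was lowest in Cyp2a4 (0.371 CPM) and Cyp2c67 (113 CPM) and highest in Muc13 (0.438 CPM). Month 2 library 2 was highest in Cyp2f2 (874 CPM) and was lowest in Tenm3 (1.26 CPM), and month 6 library 6 was highest in Fcgbp (0.665 CPM).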

How the results depend on the processing

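The count of 77 called genes (42 higher, 35 lower) stayed within 1.5 times with RLE scaling, library totals and either filter. DESeq2 called 119 (75 higher), limma-voom 38 (26 higher, 12 lower), and the 12 libraries fitted alone 34 (24 higher, 10 lower). Leaving out 1 library gave 12 to 111 (9 to 62 higher, 3 to 53 lower). Of settings that combine libraries or add a covariate, leaving out month 2 libraries 1 and 6 gave 20 (16 higher, 4 lower) and also month 6 library 2 gave 7 (4 and 3). The Arntl to Dbp covariate gave 14 (11 and 3), and the intestinal list level as covariate 2 (0 and 2). Settings chosen after seeing the data were libraries 4 to 6 alone, with 15 (7 and 8), these without month 2 library 6, with 1 (0 and 1), and the ratio covariate without month 2 library 6, with 11 (7 and 4). Between oil at months 12 and 2 the 11 calls became 183 with library totals, 26 with the 1 CPM filter, 139 with DESeq2, 17 with limma-voom, 190 with the 12 libraries alone and 4 to 28 without 1 library. The cause was not tested.

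With the replicate number as a block, 50 genes were called (32 higher, 18 lower), and 19 between the oil groups. Same-numbered libraries correlated between -0.36 and 0.23, over 0.1 in 3 of 6 pairs, so the numbers were not taken to pair the libraries.

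Called genes named in the text that changed sign were all high in month 2 library 6; genes not called, such as Timp1, Col1a1 and Cdkn1a, changed sign as well. Without 1 library the log2 fold changes ran from -7.75 to 0.47 (Sis), -7.36 to 0.05 (Krt20), -5.58 to 0.53 (Muc13), -4.9 to 0.07 (Cdhr2) and -4.73 to 0.21 (Slc5a1), the highest without that library. Without month 2 libraries 1 and 6 they were Sis 0.4, Krt20 0.24, Slc6a19 0.07, Muc13 0.46, Cdhr2 0.02 and Slc5a1 0.26, and without month 6 library 2 as well Sis 0.4, Muc13 0.46 and Slc5a1 0.27. With the intestinal covariate they were S100g 0.34, Sis 1.77, Krt20 0.77, Fcgbp 0.04, Slc6a19 0.04, Muc13 1.29, Cdhr2 0.81 and Slc5a1 0.53. In libraries 4 to 6 without month 2 library 6 they were Krt20 0.52, Slc6a19 0.98, Vil1 0.07 and Slc5a1 0.3. With that library left out and the ratio covariate they were Sis 0.94, Muc13 0.95, Cdhr2 0.4 and Slc5a1 0.28.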

Other observations

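Heat shock genes were not called, but most had values above 0. Of 23 tested, 21 were above 0, the median log2 fold change was 0.35 against 0 over all tested genes, and 7 were higher and 1 lower at an unadjusted p below 0.05, against 4.56% and 4.54% of all genes. The members below 0, Cirbp (-0.36) and Rbm3 (-0.38, the 1 lower), are genes of cold-induced proteins that the list also holds. The chaperone genes Hsp90aa1 (0.80, edgeR adjusted p = 0.302) and Dnajb1 (0.59, edgeR adjusted p = 0.385) had the smallest p. The list median was 0.22 with the Arntl to Dbp covariate, 0.20 in libraries 4, 5 and 6 alone and 0.24 and 0.25 without month 6 library 1 or 2, and Hsp90aa1 was at 0.51 with the covariate and at 0.42 in libraries 4, 5 and 6. Of 35 fatty acid oxidation genes 0 were called, 27 were above 0, the median was 0.14, and 9 were higher at an unadjusted p below 0.05. The hepatokine gene Fgf21 (1.67, edgeR adjusted p = 0.16) and the peroxisome division gene Pex11a (0.37, edgeR adjusted p = 0.234) had the smallest p. Of 32 genes of the unfolded protein and ATF4 responses 0 were called, with a median of 0.16.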
